A study of Homo sapiens with 8 samples.

Results

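The genes described here are the nuclear genes whose names mark them as parts of the mitochondrial respiratory chain and ATP synthase, measured as RNA in H1703, a cell line long kept in culture and labelled as squamous cell carcinoma of the lung. They were taken by name: a row had to carry a single symbol beginning with NDUFA, NDUFB, NDUFC, NDUFS or NDUFV and a digit, be SDHA, SDHB, SDHC or SDHD, or begin with UQCR, with COX and a digit from 4 to 8, or with ATP5. Names ending in P and a digit, the form used for pseudogenes, were left out. This gave 57 of 27204 genes. Complex I had 24 of them, complex II 2, complex III 5, complex IV 11 and complex V 11. The other 4 (ATP5S, ATP5SL, ATP5L2 and the antisense RNA NDUFB2-AS1) match the names but are not subunit genes of a complex.

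By its title the study is about SPIB, a transcription factor, in the autolysosomal process and in resistance to anoikis, the death of cells that lose their attachment. It holds 4 groups of 2 libraries: detached cells with a SPIB knockdown, detached control cells, attached cells with a SPIB knockdown, and attached control cells. All 4 groups are H1703 cells with a knockdown, since the controls carry a knockdown of luciferase, a firefly enzyme that human cells do not have. Detached cells are those labelled floating, and a note of 12 hours of floating stands on all 8 samples, the attached ones included. Neither the knockdown sequence nor whether the cells are a clone is given in the sources used here. The labels call the libraries of a group biological repeats, and p-values measure the spread between these libraries.

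The respiratory chain passes electrons from NADH and succinate to oxygen. Complex I takes them from NADH and complex II from succinate, and both hand them by coenzyme Q to complex III. Cytochrome c then carries them to complex IV, where oxygen is reduced. Complexes I, III and IV pump protons across the inner mitochondrial membrane, and the ATP synthase, called complex V, lets them flow back to make ATP. Most subunits come from nuclear genes such as these, and a small core comes from the mitochondrial genome. Tumour cells that lose contact with the matrix are known for shifts in their use of glucose and mitochondria, and SPIB is an ETS family factor, known from B cells, that binds purine-rich DNA.

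Many nuclear respiratory genes are known to be driven by the factors NRF1, the ETS factor GABP, and YY1. Their promoters were therefore searched for 4 short words on both strands: an NRF1-like word (the capitals before position 1 in the NDUFA12 promoter are an instance), CCGGAAG (ETS-like), GAGGAAG (a purine-rich ETS word of the kind SPIB prefers) and AAGATGG (YY1-like). The ETS-like and YY1-like words can overlap at the letters AAG. Promoters were those of the RefSeq table on GRCh38.p14, from 250 bases before to 50 bases after the annotated start, and 42 of the 52 genes tested below had an entry, 10 of them under a newer symbol. The promoters shown belong to the genes with the smallest adjusted p in a comparison of detachment or knockdown: NDUFA12, UQCRFS1 and ATP5H (ATP5PD in RefSeq). They lie at chr12:95003648-95003947, chr19:29213102-29213401 and chr17:75046920-75047219 on GRCh38.p14, all on the minus strand, and capitals mark the words found.
NDUFA12: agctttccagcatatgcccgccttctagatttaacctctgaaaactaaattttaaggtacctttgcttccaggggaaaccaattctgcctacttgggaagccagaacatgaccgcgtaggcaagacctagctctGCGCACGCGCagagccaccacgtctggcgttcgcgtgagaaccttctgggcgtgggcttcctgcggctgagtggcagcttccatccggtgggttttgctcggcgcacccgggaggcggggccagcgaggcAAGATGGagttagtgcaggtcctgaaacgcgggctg
UQCRFS1: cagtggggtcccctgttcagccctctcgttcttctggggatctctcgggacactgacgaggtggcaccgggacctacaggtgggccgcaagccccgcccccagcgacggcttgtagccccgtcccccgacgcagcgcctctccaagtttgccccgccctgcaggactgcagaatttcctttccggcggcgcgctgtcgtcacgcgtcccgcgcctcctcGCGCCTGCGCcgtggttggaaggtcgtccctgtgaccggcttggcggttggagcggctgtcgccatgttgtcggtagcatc
ATP5H: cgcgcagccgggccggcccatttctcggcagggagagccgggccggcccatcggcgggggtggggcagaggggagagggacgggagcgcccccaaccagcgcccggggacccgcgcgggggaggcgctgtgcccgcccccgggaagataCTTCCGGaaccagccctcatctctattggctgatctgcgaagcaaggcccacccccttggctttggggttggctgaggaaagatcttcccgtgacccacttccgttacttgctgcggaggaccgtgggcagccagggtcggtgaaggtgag
In the NDUFA12 promoter the NRF1-like word begins at position -116 from the start and the YY1-like word at position 15, just inside the transcript. The word in the UQCRFS1 promoter is NRF1-like and begins at -31. The word in the ATP5H promoter is ETS-like, read on the other strand, and begins at -101. None of these 3 promoters held the purine-rich word.

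Of the 42 promoters, 8 (19.0%) held the NRF1-like word, against 5.78% of all 35116 promoters in the table and 10.01% of the 11162 promoters of tested genes. The ETS-like word was in 11 (26.2%), against 10.3% of all promoters and 16.3% of those of tested genes. The YY1-like word was in 11 (26.2%), against 5.84% of all promoters and 7.01% of those of tested genes. The purine-rich word was in 6 (14.3%), those of NDUFA5, NDUFV1, COX4I1, COX5B, ATP5G1 and ATP5J, against 13.6% of all promoters and 14.5% of those of tested genes. No word was found in 15 promoters. These are counts of letters in a window and show no binding. For genes with the purine-rich word the median difference on SPIB knockdown was -0.04 log2 in detached cells and -0.01 in attached cells, and for genes without it -0.02 and -0.07.

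The authors deposited FPKM (fragments per kilobase of transcript, scaled to the mapped fragments of the library), which can be compared between genes per length. The values hold no read totals, and the precision of a value cannot be read from a count. Judged by the ratio that low values most often took between libraries, reads differed by up to 1.59 times. FPKM summed to between 707883 and 786285 per library. The locus that holds 12 genes of the mitochondrial genome was listed at 0 in 4 libraries, 1 of each group, and between 47540 and 47980 FPKM in the other 4, so the mitochondrially encoded part of the chain was not compared. SPIB is listed only in a locus with POLD1 (19:50887346-50934570 on hg19), and the knockdown could not be checked. That locus had 41.8 and 44.3 FPKM in detached knockdown libraries, 44.9 and 49.8 in detached control libraries, 47.5 and 52.5 in attached knockdown libraries, and 55.9 and 51.2 in attached control libraries. KRT5, KRT6A and KRT14 are listed only in merged loci. Of the squamous markers with a row of their own, TP63 lay between 0.0328 and 0.318 FPKM, SOX2 between 0.734 and 2.68, and DSG3 and PKP1 at or below 0.107, so the squamous markers that could be read were at low levels or near 0. Of the mesenchymal markers VIM lay between 2056 and 2550 FPKM, CDH2 between 6.58 and 9.94 and COL1A1 between 1.46 and 3.90, and the 4 leukocyte markers at or below 0.263.

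The chain was expressed at a high level. Over the 52 genes that reached 1 FPKM in at least 2 libraries, the median level was 112 FPKM, against 12.8 FPKM over all 13438 genes tested. The median gene of the chain stood at percentile 91.8 of all tested genes. Of the 52, 29 exceeded 100 FPKM and 5 were under 30.

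In complex I, the NADH dehydrogenase, levels ran from NDUFA5 with a mean of 15.2 FPKM over 8 libraries to NDUFS5 with 345. NDUFB9, an accessory subunit of the membrane arm, had the second highest level, 272 FPKM. The core subunits that bind the flavin and the iron-sulfur clusters lay in between. NDUFV1, which takes the electrons from NADH, had 143 and 125 FPKM in detached knockdown libraries, 138 and 136 in detached control libraries, 149 and 153 in attached knockdown libraries, and 154 and 156 in attached control libraries. NDUFS1, the large iron-sulfur subunit, had 53.4, 54.8, 54.2, 48.7, 51.8, 55.0, 52.8 and 53.5 FPKM in the same order of libraries, with all 4 groups overlapping. In complex II, succinate dehydrogenase, SDHB (iron-sulfur subunit) had a mean of 88.4 FPKM and SDHC (membrane anchor) 70.8.

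In complex III, the cytochrome bc1 complex, UQCRH (the hinge protein that contacts cytochrome c1) stood apart with a mean of 473 FPKM. UQCRB followed with 147 FPKM, and UQCRC2, a core protein, was lowest with 82.4. UQCRFS1, the Rieske iron-sulfur protein that passes electrons on to cytochrome c1, had a mean of 85.4 FPKM. In complex IV, cytochrome c oxidase, COX7C had the highest level of the whole set, 844 to 893 FPKM. COX4I1, the ubiquitous form of a subunit that joins early in assembly, had 418 and 428 FPKM in detached knockdown libraries, 425 and 437 in detached control libraries, 401 and 428 in attached knockdown libraries, and 422 and 419 in attached control libraries. COX7B was lowest of the tested complex IV genes with a mean of 30.6 FPKM.

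The muscle forms of complex IV subunits were at or near 0. COX6A2, the form of heart and skeletal muscle, was listed at 0 in 5 libraries and at most at 0.0996 FPKM. COX7A1, another muscle form, reached at most 0.28 FPKM, and COX6B1, the form of most tissues, lay between 263 and 282. NDUFA4, first assigned to complex I and now placed in complex IV, lay between 56.6 and 61.7 FPKM, whereas its hypoxia-induced paralog NDUFA4L2 stayed between 0.0857 and 0.744. These 3 low genes, with ATP5L2 and NDUFB2-AS1, are the 5 that did not reach the level for testing. COX4I2, COX7B2 and COX8C were not analysed here.

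Among the complex V genes with a row of their own the beta and alpha subunits led, ATP5B with a mean of 470.4 FPKM and ATP5A1 with 398. The locus that merges the subunit gene ATP5J2 with PTCD1 lay higher, at 858 to 970 FPKM, and its value cannot be split between those genes. ATP5E, the epsilon subunit of the central stalk, was lowest with 23.1 FPKM. The c ring through which protons pass is encoded by 3 genes whose mature protein is the same, and all 3 were expressed. ATP5G1 lay between 294 and 339 FPKM, ATP5G2 between 188 and 214, and ATP5G3 between 204 and 224. The ranges of ATP5G2 and ATP5G3 overlapped, and ATP5G1 lay above both in every library.

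**Figure D1:**
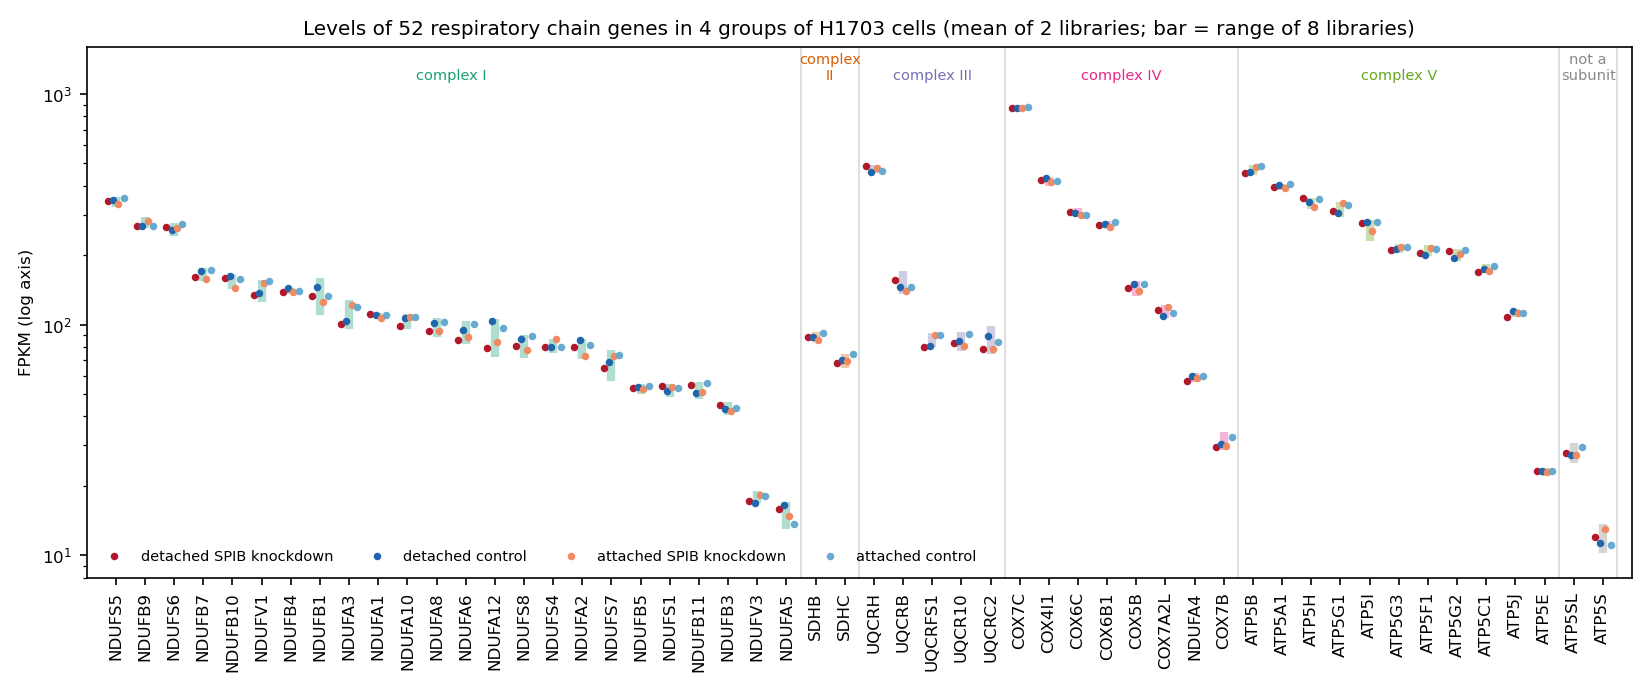
FPKM (log axis) of the 52 tested genes, ordered by complex and level. Points are means of 2 libraries in each of the 4 groups, and bars are the range over all 8 libraries. Levels differ by up to 73.4 times between genes (COX7C over ATP5S), while the 4 groups of a gene lie close together.

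Levels differed far less between libraries than between genes. The highest library exceeded the lowest by a median of 1.14 times, from 1.06 times (COX7C) to 1.46 times (NDUFA12), and 36 of the 52 genes stayed under 1.2 times. Summed over its genes, complex I ranged from 2682 to 2854 FPKM over the 8 libraries, complex II from 151 to 167, complex III from 849 to 899.7, complex IV from 2143 to 2246 and complex V from 2667 to 2845. Between the 2 libraries of a group the median difference lay at 0.04 to 0.08 log2 over these genes, against 0.10 to 0.11 over all tested genes, which are mostly at lower levels. Attached knockdown replicate 1 was the lowest of the 8 libraries in 23 of 52 genes, and attached control replicate 2 was the highest in 17. Among single genes, NDUFB1, an accessory subunit of the membrane arm, varied most inside groups: it had 119 and 148 FPKM in detached knockdown libraries, 132 and 159.9 in detached control libraries, 111 and 141 in attached knockdown libraries, and 126 and 139.8 in attached control libraries.

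**Figure D2:**
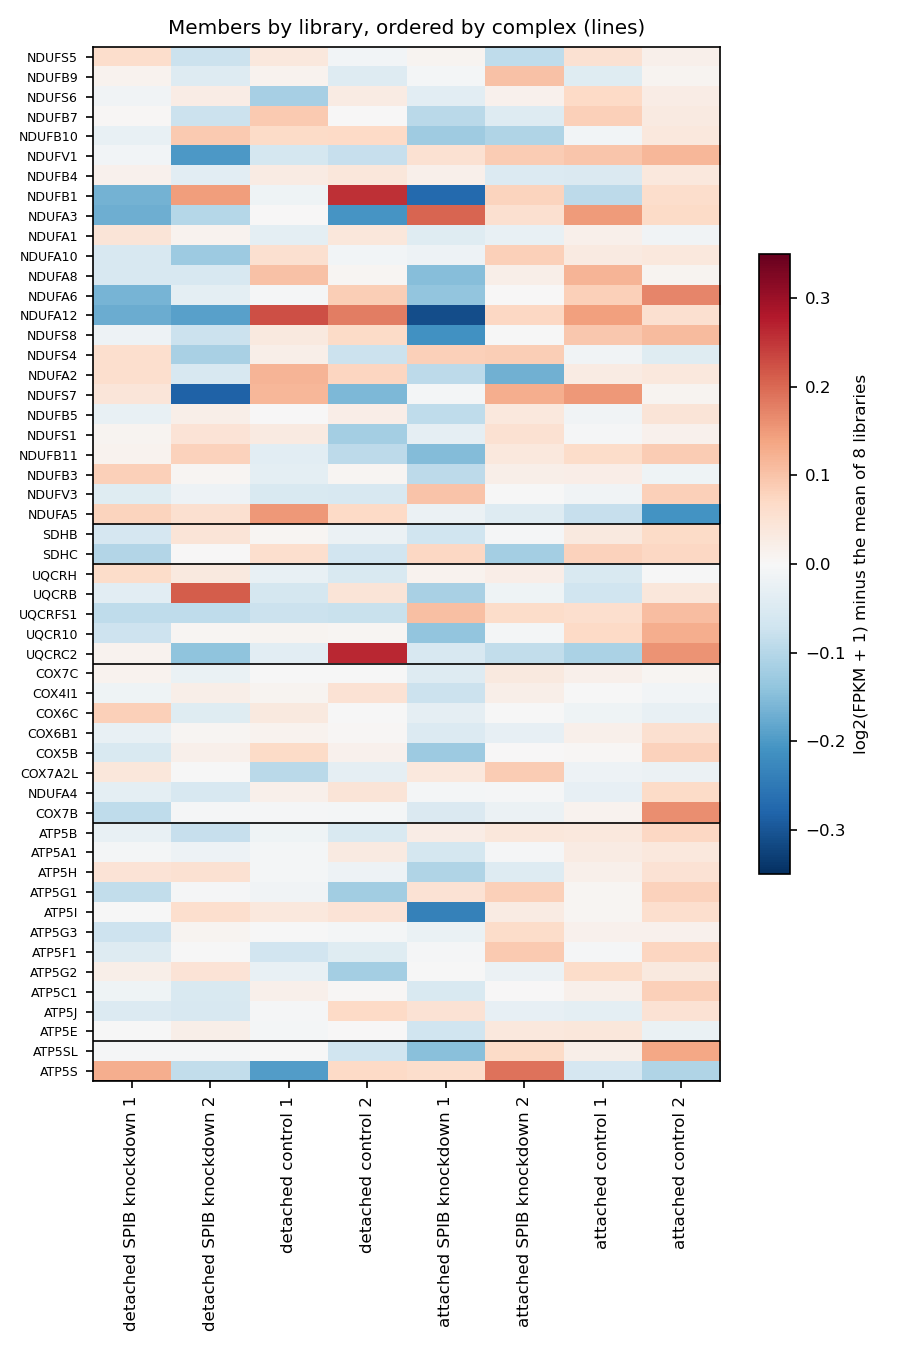
Deviation of log2(FPKM + 1) from the gene's mean over 8 libraries (colour scale, -0.35 to 0.35) for the 52 tested genes, with black lines between complexes. Attached knockdown replicate 1 is blue in many rows, and NDUFA12 is low in both detached knockdown libraries and in attached knockdown replicate 1.

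Tests were made with limma on log2(FPKM + 1) over all 13438 genes and loci, and genes were called where the p adjusted by the Benjamini-Hochberg method was under 0.05. Differences are log2 fold changes with their standard errors (SE), and intervals are 95% intervals not adjusted for the number of genes. In these bulk samples a smaller share of cells expressing a gene and less RNA per cell cannot be told apart. Each detachment comparison shares a group of libraries with each knockdown comparison (each group enters 2 of the 4). The 2 detachment comparisons share no library, nor do the 2 knockdown comparisons, but all 4 take the spread of a gene from the same fit.

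On detachment of control cells none of the 52 genes was called, whereas 3.15% of all tested genes were called, 0.893% as higher and 2.25% as lower in detached cells. At an unadjusted p under 0.05 there were 6 (11.5%), against 20.5% of all tested genes. The median difference was -0.02 log2, against -0.01 over all tested genes, and by complex it was -0.01 (I), -0.07 (II), -0.01 (III), -0.01 (IV) and -0.04 (V). Both detached libraries lay below both attached ones for 21 genes and above them for 6, that is 40.4% lower and 11.5% higher, against 28.3% and 23.7% of all tested genes. That direction depended on the scaling: after quantile normalization of the libraries the median was 0.04 log2 (0.002 over all tested genes), with 4 genes lower and 18 higher without overlap, against 24.9% and 25.3% of all tested genes. With FPKM rescaled without small RNA, ribosomal RNA and mitochondrial loci it was 0.02 log2, below the 0.03 of all tested genes, with 8 genes lower and 10 higher, against 21.8% and 29.7% of all tested genes. The 95% interval stayed within 0.3 log2 of 0 for 43 of the 52 genes, and the median half-width was 0.13 log2.

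UQCRFS1, the Rieske protein, had the smallest adjusted p in that comparison. It had 80.8 and 80.7 FPKM in detached control libraries, against 88.8 and 92.0 in attached control libraries. The groups did not overlap, and the difference was -0.16 ± 0.04 log2 (SE; limma adjusted p = 0.091). NDUFV1 was likewise lower in both detached libraries, 138 and 136 FPKM against 154 and 156 in attached ones, by 0.18 log2 (a log2 difference of -0.18 ± 0.06, limma adjusted p = 0.164). NDUFA3, a small accessory subunit, had 111 and 96.0 FPKM in detached control libraries, against 123 and 116 in attached ones (-0.21 ± 0.08 log2, limma adjusted p = 0.195). The largest difference upward was that of NDUFA5, an accessory subunit of the peripheral arm, with 16.9 and 15.9 FPKM in detached control libraries, against 14.2 and 13.0 in attached ones (0.26 ± 0.08 log2, limma adjusted p = 0.117). NDUFB1 (0.13 log2) and NDUFA12 (0.10 log2) followed, and their intervals, -0.22 to 0.49 and -0.15 to 0.36, included 0. Of the beta and alpha subunits of ATP synthase, ATP5B (beta) had 465 and 453 FPKM in detached control libraries, against 482 and 494 in attached ones, a difference of -0.09 ± 0.03 log2 (limma adjusted p = 0.198). ATP5A1 differed by -0.02 log2, with an interval of -0.10 to 0.06.

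In SPIB-knockdown cells, too, none of the 52 was called on detachment, while 7.11% of all tested genes were called, 2.05% as higher and 5.06% as lower in detached cells. The 8 genes at an unadjusted p under 0.05 (15.4%) compare with 24.3% of all tested genes. Here the median was 0.02 log2, against -0.02 over all tested genes, with 0.02 (I), 0.00 (II), 0.03 (III), 0.01 (IV) and -0.01 (V) by complex. Libraries did not overlap for 10 genes that were lower and 8 that were higher in detached cells (19.2% and 15.4%), against 30% and 24% of all tested genes. After quantile normalization the median was 0.10 log2 (0.004 over all tested genes), with 3 genes lower and 29 higher without overlap, against 25.2% and 26.8% of all tested genes. After the rescaling it was 0.08 log2 (0.03 over all tested genes), with 4 genes lower and 25 higher, against 21.9% and 32% of all tested genes. For 44 of 52 genes the interval stayed within 0.3 log2 of 0.

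UQCRFS1 again had the smallest adjusted p, with 80.0 and 80.0 FPKM in detached knockdown libraries, against 91.7 and 89.2 in attached ones. That difference of -0.17 ± 0.04 log2 missed the threshold (limma adjusted p = 0.0531). With a filter at 5 FPKM, which leaves 9776 genes, its adjusted p was 0.0424. ATP5H, subunit d of the stalk that holds the ATP synthase head, was higher in detached knockdown cells, 354 and 355 FPKM against 318 and 331 in attached ones (0.13 ± 0.03 log2, limma adjusted p = 0.0709). NDUFB10, of the membrane arm of complex I, had 153 and 166 FPKM in detached knockdown libraries, against 143 and 145 in attached ones (0.15 ± 0.05 log2, limma adjusted p = 0.111). With quantile normalization these 2 genes were called, at 0.20 and 0.24 log2. NDUFA3 was lower, 98.5 and 104 FPKM in detached knockdown libraries against 128 and 116 in attached ones (-0.26 ± 0.08 log2, limma adjusted p = 0.0973). NDUFV1 differed by -0.18 ± 0.06 log2 (limma adjusted p = 0.136). Over 20 other settings, omissions of 1 library included, it lay between -0.27 (without detached knockdown replicate 1) and -0.07 log2. NDUFA2 differed by 0.13 log2 and NDUFA10 by -0.12, both without overlap (limma adjusted p = 0.193 for each). In the next 3 genes the groups overlapped. UQCRB had 143 and 170.5 FPKM in detached knockdown libraries, against 136 and 145 in attached ones (0.15 log2, interval -0.05 to 0.36). ATP5I, subunit e, which joins ATP synthases into dimers, had 271 and 283 against 230.4 and 277 (0.13 log2, interval -0.05 to 0.31), and its difference was -0.001 log2 without attached knockdown replicate 1. NDUFS7, a core iron-sulfur subunit, had 71.9 and 57.2 against 69.4 and 76.2 (-0.18 log2, interval -0.48 to 0.12).

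**Figure D3:**
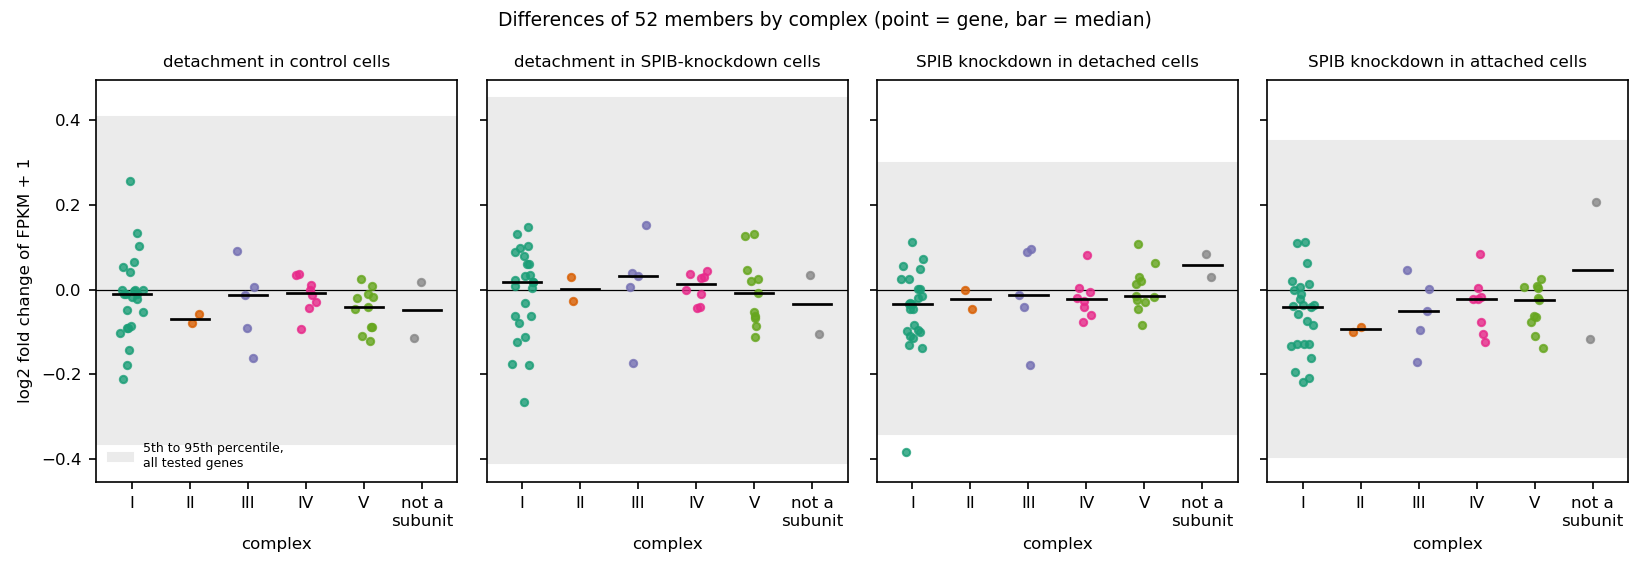
Log2 fold change of FPKM + 1 for the 52 tested genes by complex in the 4 comparisons. Points are genes, black bars are medians, and the grey band is the 5th to 95th percentile of all 13438 tested genes. Apart from NDUFA12 in the knockdown of detached cells, at -0.38, every gene lies inside the band.

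On SPIB knockdown in detached cells none of the 52 genes was called, and 0.737% of all tested genes were called, 0.0744% as higher and 0.662% as lower in knockdown cells. Of the 52, 3 had an unadjusted p under 0.05 (5.77%), against 11.9% of all tested genes. The median difference was -0.02 log2, against 0 over all tested genes, and by complex it was -0.03 (I), -0.02 (II), -0.01 (III), -0.02 (IV) and -0.02 (V). Knockdown libraries lay below both controls for 12 genes (23.1%) and above them for 6 (11.5%), against 22.6% and 21.3% of all tested genes. That direction depended on the scaling. After quantile normalization 6 genes were lower and 11 higher without overlap (11.5% and 21.2%), against 20.4% and 23.4% of all tested genes. The median was then -0.004 log2 (0.01 over all tested genes). After the rescaling 17 genes were lower and 6 higher (32.7% and 11.5%), against 23.1% and 20.9% of all tested genes. Intervals within 0.3 log2 of 0 were found for 45 genes.

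NDUFA12, an accessory subunit added late to the peripheral arm of complex I, showed the largest difference of any tested gene of the chain. It had 80.0 and 79.1 FPKM in detached knockdown libraries, against 106 and 102 in detached control libraries. The groups did not overlap, and the difference was -0.38 ± 0.11 log2, with an interval of -0.64 to -0.13 (limma adjusted p = 0.22). In attached cells it had 72.7 and 95.01 FPKM in knockdown libraries, against 100.01 and 93.9 in control libraries (-0.22 ± 0.11 log2, interval -0.48 to 0.04), and these groups overlapped. The wide spread of the attached knockdown libraries enters the SE of both comparisons. When either of these 2 libraries was left out, the difference in detached cells stayed at -0.38 log2, since neither library enters it. NDUFA12 was called in detached cells in 2 of 20 other settings. Both were these omissions, which change only the SE and leave 1 library in the attached knockdown group. In a fit of only the 2 detached groups, which holds neither attached knockdown library, NDUFA12 was not called.

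Next lowest in detached cells were UQCRC2, with 82.8 and 74.3 FPKM in knockdown libraries against 80.0 and 98.7 in control libraries (-0.18 log2, interval -0.46 to 0.10), and NDUFA6, with 82.3 and 90.1 against 91.9 and 97.9 (-0.14 log2, interval -0.30 to 0.03). The highest differences were those of NDUFB11 (0.11 log2, interval -0.05 to 0.28), ATP5G2 and UQCRB (0.10 log2, interval -0.11 to 0.30). ATP5G2 had 207 and 211 FPKM in detached knockdown libraries, against 201 and 188 in detached control libraries (0.11 ± 0.04 log2, limma adjusted p = 0.371). UQCRH had 494 and 484 against 464 and 456, and its difference of 0.09 ± 0.03 log2 was not called (limma adjusted p = 0.335). Among other subunits, SDHB differed by 0.00 log2 (interval -0.12 to 0.12), UQCRFS1 by -0.01 (interval -0.11 to 0.09), COX4I1 by -0.03 (interval -0.12 to 0.07) and ATP5B by -0.02 (interval -0.10 to 0.06).

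On SPIB knockdown in attached cells again none of the 52 was called, with 1.85% of all tested genes called, 0.64% as higher and 1.21% as lower in knockdown cells. An unadjusted p under 0.05 was found for 7 genes (13.5%), against 17.1% of all tested genes, and all 7 were lower in knockdown cells. The median difference was -0.04 log2, against 0.01 over all tested genes, with -0.04 (I), -0.09 (II), -0.05 (III), -0.02 (IV) and -0.02 (V) by complex. Both knockdown libraries lay below both controls for 20 genes (38.5%) and above them for 5 (9.62%), against 22.4% and 24.4% of all tested genes. After quantile normalization 19 genes were lower and 6 higher (36.5% and 11.5%), against 22.4% and 23.9% of all tested genes. After the rescaling 27 genes were lower and 4 higher (51.9% and 7.69%), against 25.7% and 21.2% of all tested genes. Attached knockdown replicate 1 is the library that was lowest of 8 in 23 genes. Without it the median was -0.02 log2, without attached knockdown replicate 2 it was -0.07, and without any 1 of the other 6 libraries it lay between -0.05 and -0.03. Intervals stayed within 0.3 log2 of 0 for 42 genes.

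Of these 7 genes, 5 are among the 24 tested genes of complex I, where 17.1% of all tested genes reached that unadjusted p. NDUFS8, a core iron-sulfur subunit, had 71.7 and 83.2 FPKM in attached knockdown libraries, against 88.9 and 90.04 in attached control libraries (-0.21 ± 0.07 log2, limma adjusted p = 0.188). NDUFA6 had 83.8 and 92.4 against 97.8 and 104 (-0.19 ± 0.07 log2, limma adjusted p = 0.219). Single libraries moved both values: without attached knockdown replicate 1 NDUFS8 differed by -0.10 log2 and NDUFA6 by -0.12, and without replicate 2 by -0.31 and -0.26. NDUFA2 differed by -0.16 log2, NDUFB10 by -0.13 and NDUFB7 by -0.13. In complex III, UQCR10 had 77.0 and 84.4 FPKM in knockdown libraries, against 89.1 and 92.8 in control libraries (-0.17 ± 0.06 log2, limma adjusted p = 0.193). ATP5H had the smallest adjusted p, with 318 and 331 FPKM in attached knockdown libraries, against 346 and 354 in attached control libraries (-0.11 ± 0.03 log2, limma adjusted p = 0.169). Upward, ATP5S had 12.4 and 13.6 against 11.3 and 10.9 (0.21 log2, interval -0.07 to 0.48), NDUFA5 14.9 and 14.7 against 14.2 and 13.0 (0.11 log2, interval -0.06 to 0.29) and NDUFS4 86.6 and 86.8 against 81.1 and 79.3 (0.11 log2, interval -0.04 to 0.26).

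**Figure D4:**
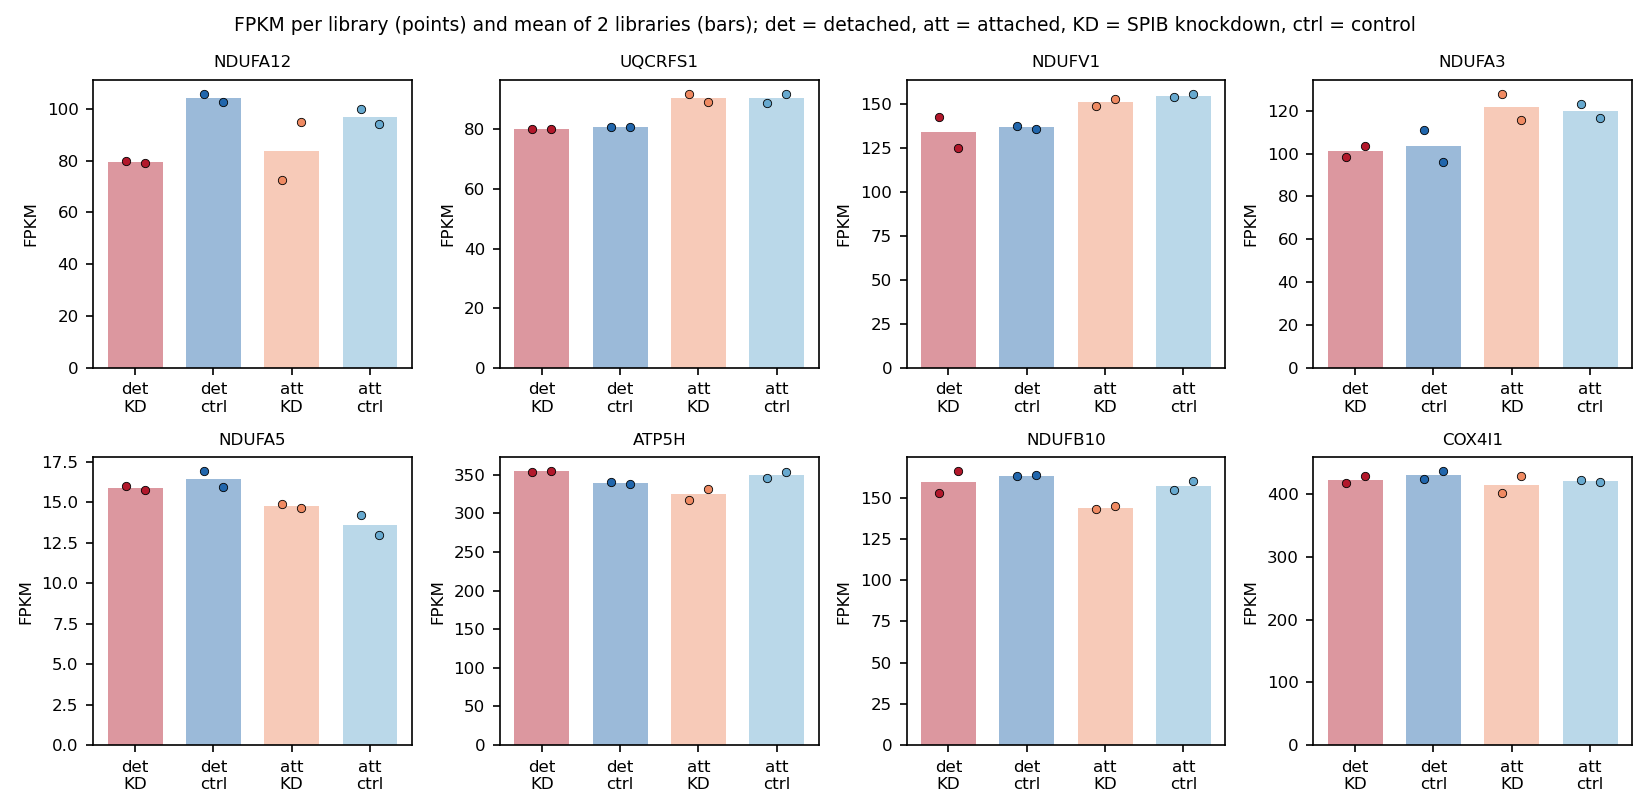
FPKM (linear axis from 0) of 8 genes of the chain in each library (points) and its group mean (bars), with detached knockdown, detached control, attached knockdown and attached control cells from left to right. NDUFA12 is lower in detached knockdown cells than in detached control cells, and UQCRFS1 and NDUFA3 are lower in both detached groups than in both attached ones, and none of these differences passed the test.

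The difference between the knockdown effects in detached and attached cells was tested as an interaction in the same fit. No gene of the 52 was called, and 0% of all tested genes (0 of 13438) were. At an unadjusted p under 0.05 there were 3 of the 52 (5.77%), against 6.68% (898) of all tested genes. These were ATP5H (0.17 ± 0.05 log2, limma adjusted p = 0.637), ATP5G2 (0.17 ± 0.06, limma adjusted p = 0.683) and NDUFB11 (0.25 ± 0.10, limma adjusted p = 0.724), each lower on knockdown in attached cells and higher on knockdown in detached cells. For NDUFA12 the interaction was -0.16 log2, with an interval of -0.53 to 0.20. The intervals stayed within 0.3 log2 of 0 for 35 of the 52, and for the others they reached beyond that.

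A further 26 subunit genes are listed only in loci merged with other genes, SDHA, SDHD, UQCRC1, COX5A, COX6A1, COX7A2 and COX8A among them, and their values cannot be split among those genes. The loci of COX5A, a subunit of complex IV, and UQCRC1, a core protein of complex III, lay at 182 to 200.3 and at 183 to 207 FPKM. Those of COX6A1, COX7A2 and COX8A, the ubiquitous forms, lay at 391 to 435, 271 to 291 and 494 to 562 FPKM, and that of COX6B2, the testis form, at or below 0.0821. All of these loci but that of COX6B2 were tested, and 2 passed the test in some comparison. These 2 are named after their values were seen. Of all tested genes, 3.15% were called on detachment of control cells and 7.11% on that of knockdown cells. On SPIB knockdown 1.85% were called in attached cells and 0.737% in detached cells. The locus of SDHA, the flavoprotein of complex II, with AHRR and PDCD6 (5:213313-438509 on hg19), had 588 and 575 FPKM in detached knockdown libraries, 562 and 548 in detached control libraries, 750.1 and 783 in attached knockdown libraries, and 628 and 616 in attached control libraries. It was higher in attached knockdown cells than in attached control cells by 0.30 ± 0.03 log2 (limma adjusted p = 0.00849), and lower in detached than in attached knockdown cells by a log2 difference of -0.40 ± 0.03 (limma adjusted p = 0.00156). On detachment of control cells the locus differed by -0.16 ± 0.03 log2 and was not called (limma adjusted p = 0.0503). On SPIB knockdown in detached cells it differed by 0.07 ± 0.03 log2 and was not called (limma adjusted p = 0.499). The interaction was not called either (-0.23 ± 0.05 log2, limma adjusted p = 0.574). The call on knockdown was lost without attached knockdown replicate 2 (limma adjusted p = 0.0518), without attached control replicate 1 (0.07) and without attached control replicate 2 (0.0822). Over 20 other settings, omissions of 1 library included, the difference on knockdown lay between 0.27 and 0.33 log2, and it was called in 15 of them. Which of the 3 genes of the locus carries the difference cannot be read from the value.

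The locus of NDUFA9, an accessory subunit of the peripheral arm, spans 7 symbols including RAD51AP1, a DNA repair gene (12:4647342-4960277 on hg19). It had 146 and 151 FPKM in detached knockdown libraries, 174 and 172 in detached control libraries, 166 and 166 in attached knockdown libraries, and 201 and 203 in attached control libraries. Its interaction was not called (0.06 ± 0.05 log2, limma adjusted p = 0.876). On SPIB knockdown in detached cells the locus differed by -0.22 ± 0.04 log2 and was not called (limma adjusted p = 0.0512). It was lower in detached than in attached control cells (-0.22 ± 0.04 log2, limma adjusted p = 0.0256), lower in detached than in attached knockdown cells (-0.16 ± 0.04, limma adjusted p = 0.0407) and lower in attached knockdown than in attached control cells (-0.28 ± 0.04, limma adjusted p = 0.0135). With the replicate number as a block the second of these was not called (limma adjusted p = 0.0515). Over 20 other settings this second difference lay between -0.18 and -0.07 log2, and it was called in 4 of them. In each comparison, leaving out any 1 library of its own 2 groups ended the call.

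Beside the subunits, lists of related genes were counted: assembly factors, mitochondrial ribosomal proteins, the TCA cycle, regulators of mitochondrial biogenesis, and electron carriers with the enzymes of coenzyme Q synthesis. None of their genes was called in the knockdown comparisons. A few fell on detachment. CYCS, cytochrome c itself, had 356 and 338 FPKM in detached knockdown libraries, 337 and 322 in detached control libraries, 443 and 444 in attached knockdown libraries, and 427 and 415 in attached control libraries. Both detached groups lay below both attached ones. It fell on detachment by 0.35 log2 in control cells (log2 difference -0.35 ± 0.04, limma adjusted p = 0.00819) and in knockdown cells (-0.35 ± 0.04, limma adjusted p = 0.00493), and it was the 1 gene called of 15 tested in the list of carriers (6.67%), where 2.25% of all tested genes fell in control cells and 5.06% in knockdown cells. The call in control cells was lost without detached control replicate 2 (limma adjusted p = 0.066), without attached control replicate 1 (0.0706) and without attached control replicate 2 (0.0541), whereas the call in knockdown cells was kept in every omission of a library.

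Of 11 assembly factors of complex I none was called in either detachment. Of 21 assembly factors of complexes II to V, 1 fell in control cells (4.76%) and 2 in knockdown cells (9.52%), against 2.25% and 5.06% of all tested genes. COA4, needed for cytochrome c oxidase, had 55.4 and 55.5 FPKM in detached knockdown libraries, 55.4 and 53.8 in detached control libraries, 71.2 and 70.0 in attached knockdown libraries, and 70.9 and 74.4 in attached control libraries. It fell in control cells (-0.41 ± 0.05 log2, limma adjusted p = 0.00913) and in knockdown cells (-0.34 ± 0.05, limma adjusted p = 0.00994). LRPPRC, which keeps mitochondrial messenger RNAs stable, fell in knockdown cells, with 81.3 and 83.3 FPKM in detached libraries against 95.2 and 95.03 in attached ones (-0.21 ± 0.04 log2, limma adjusted p = 0.0273). In control cells it differed by -0.14 ± 0.04 log2 and was not called (limma adjusted p = 0.104). Of 13 regulators of biogenesis, TFAM, which packs and transcribes mitochondrial DNA, fell in knockdown cells, with 68.7 and 69.1 FPKM in detached libraries against 88.9 and 85.9 in attached ones (-0.34 ± 0.05 log2, limma adjusted p = 0.009). In control cells TFAM differed by -0.20 ± 0.05 log2 and was not called (limma adjusted p = 0.0622). The interaction was not called for LRPPRC or TFAM (limma adjusted p = 0.895 and 0.762). Each of the calls of COA4, LRPPRC and TFAM was lost in some omissions of a library. For COA4 in control cells these were detached control replicate 2 (limma adjusted p = 0.0791) and attached control replicate 2 (0.0801), and in knockdown cells detached replicates 1 and 2 (0.0518 and 0.0666) and attached replicate 1 (0.0529). For LRPPRC they were detached knockdown replicates 1 and 2 (0.116 and 0.101), attached knockdown replicates 1 and 2 (0.0992 and 0.104) and detached control replicate 2 (0.0502). For TFAM they were detached knockdown replicate 2 (0.061) and attached knockdown replicate 1 (0.0507).

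The mitochondrial ribosomal proteins, which make the few chain subunits encoded in the mitochondrial genome, had a median difference on detachment of -0.12 log2 in control cells and -0.10 in knockdown cells over 52 tested genes, against -0.01 and -0.02 over all tested genes. The difference was negative for 44 of the 52 in control cells (84.6%) and for 37 in knockdown cells (71.2%), against 51.6% and 53.5% of all tested genes. After quantile normalization the medians were -0.05 and -0.04 log2, with 36 and 30 negative (69.2% and 57.7%), against 49.3% and 49.2% of all tested genes. MRPL4 and MRPS12 fell in control cells, and MRPL3, MRPL4 and MRPS12 in knockdown cells. These are 3.85% and 5.77% of the list, near the 2.25% and 5.06% of all tested genes that fell. MRPL3 differed in control cells by -0.22 ± 0.05 log2 and was not called there (limma adjusted p = 0.0563). MRPS12 had 76.6 and 75.0 FPKM in detached knockdown libraries, 78.3 and 77.3 in detached control libraries, 89.4 and 88.6 in attached knockdown libraries, and 92.7 and 92.5 in attached control libraries (-0.25 ± 0.04 log2 in control cells, limma adjusted p = 0.0262). None of 24 TCA cycle and pyruvate dehydrogenase genes was called in either detachment, and their medians were -0.05 log2 in both. For MRPL4 and MRPS12 in control cells, leaving out any 1 of the 4 control libraries ended the call (limma adjusted p between 0.101 and 0.151). In knockdown cells the calls of MRPL4 and MRPS12 were lost without any 1 of the 4 knockdown libraries (0.0539 to 0.127), that of MRPL4 also without any 1 control library (0.0517 to 0.0524), and that of MRPL3 without detached or attached replicate 2 (0.0755 and 0.0758). After quantile normalization MRPL3, MRPL4, MRPS12 and LRPPRC were not called in knockdown cells (limma adjusted p = 0.0558, 0.138, 0.126 and 0.156), nor was MRPS12 in control cells (0.0763). After the rescaling without small RNA, LRPPRC, MRPL4 and MRPS12 were not called in knockdown cells (limma adjusted p = 0.0819, 0.0611 and 0.0558). Without an intensity trend CYCS, MRPL4 and MRPS12 were not called in control cells (limma adjusted p = 0.0707, 0.0946 and 0.103). In knockdown cells LRPPRC, MRPL3, MRPL4 and MRPS12 were not called without that trend (limma adjusted p between 0.0668 and 0.0964). With the fit restricted to the 2 groups compared, of the calls named for CYCS, COA4, LRPPRC, TFAM and the 3 ribosomal proteins, only that of CYCS in knockdown cells was kept (limma adjusted p = 0.0327), and the others lay between 0.0527 and 0.1003.

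**Figure D5:**
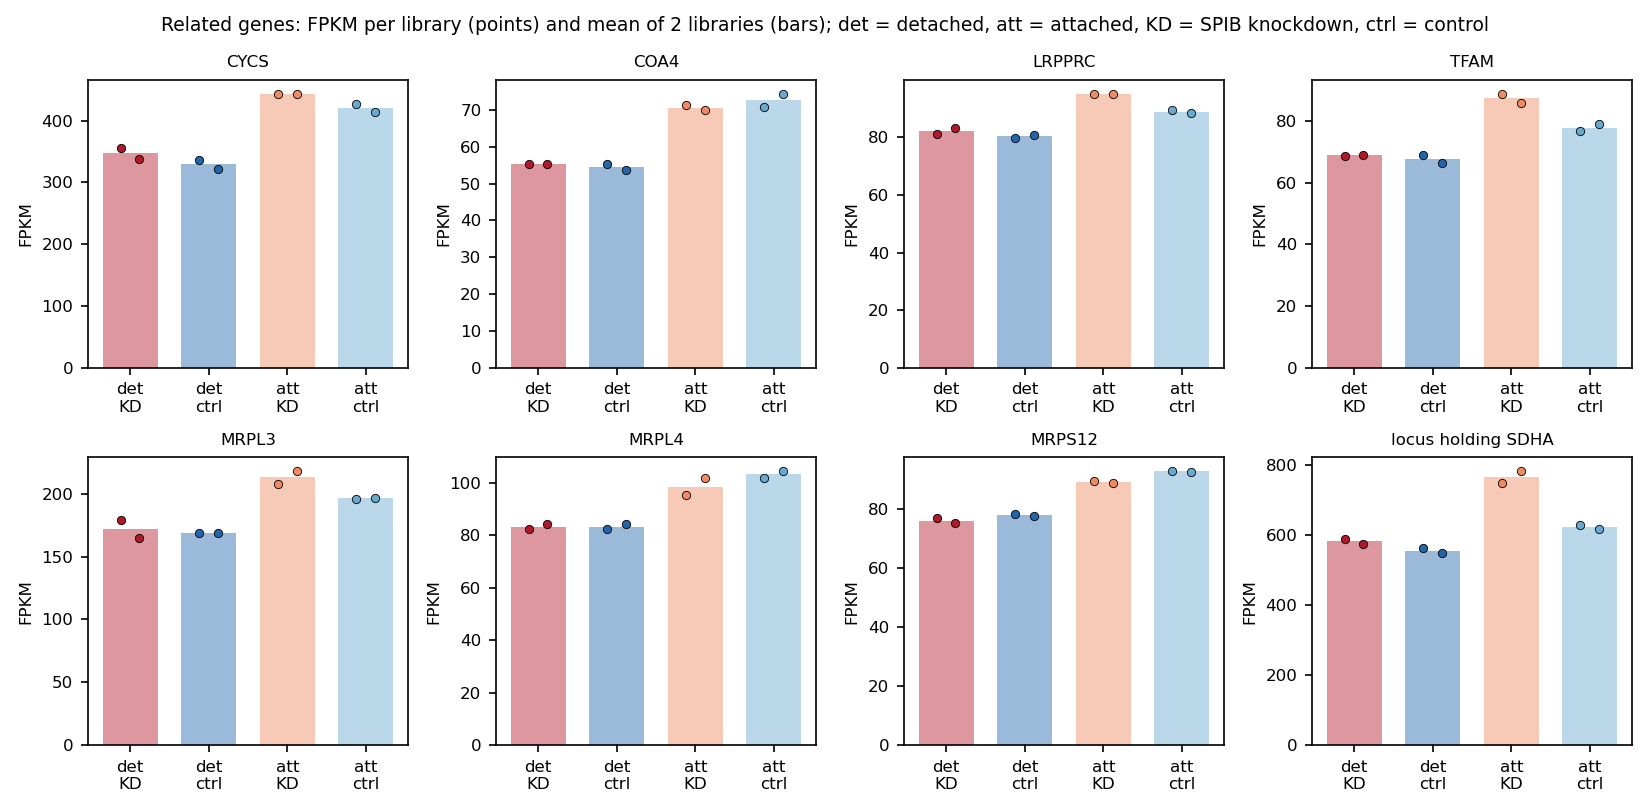
FPKM (linear axis from 0) of 7 genes related to the chain and of the merged locus that holds SDHA in each library (points) with group means (bars), ordered as detached knockdown, detached control, attached knockdown and attached control cells. CYCS, COA4, LRPPRC, TFAM and the 3 ribosomal protein genes are lower in both detached groups than in both attached ones.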

How the data were processed

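RNA of H1703 cells was measured in 8 libraries, 2 in each of 4 groups. The authors deposited FPKM values, 1 table a library. The submitters' processing notes name hg19, HISAT and Cuffnorm, with no versions. How reads that match several copies were handled is not given in these sources. The tables list 28590 loci, of which 1961 merge several symbols and 1673 have none; loci of the same symbol were summed to 27204. The rule left out 24 loci with names of pseudogenes. Reads shared with near-identical copies, as for the c ring genes, make single values uncertain.

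All tests used log2(FPKM + 1), a scale on which changes of low genes come out too small. Genes with at least 1 FPKM in at least 2 libraries were fitted with limma 3.58.1 in R 4.3.3 (intensity trend, 1 mean per group, 4 residual and 3.42 prior degrees of freedom), two-sided, with Benjamini-Hochberg adjustment over 13438 genes; the fit was tested on simulated data. The genes and lists were chosen with earlier results of these data known. Genes named are the 3 highest and the 3 lowest differences per comparison, called genes, the highest, second and lowest levels per complex, core subunits and tissue forms; genes at an unadjusted p under 0.05 and merged loci were added after their values were seen.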

Additional observations from a re-analysis of the deposited data

How the results depend on the processing

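In none of the 5 comparisons was a gene of the chain called with the replicate block, with log2(FPKM + 0.1) or log2(FPKM + 5), with no filter, without an intensity trend or, for the 4 comparisons of groups, in a fit of the 2 groups compared. Calls appeared on detachment of knockdown cells: 1 with a filter at 5 FPKM (UQCRFS1), 1 with median of ratios scaling (ATP5H), and 2 each with quantile normalization and with FPKM rescaled without small RNA, ribosomal RNA and mitochondrial loci (ATP5H and NDUFB10). Leaving out each of the 8 libraries in turn gave 0 to 1 there (NDUFV1 without detached knockdown replicate 1) and 0 to 1 for the knockdown in detached cells (NDUFA12). The cause was not tested. The median over the 52 genes on detachment was 0.0366 log2 (control) and 0.0976 (knockdown cells) with quantile normalization, and 0.0224 and 0.0751 after rescaling. Leaving out 1 library gave medians of -0.0259 (without attached knockdown replicate 1) to 0.039 on detachment of knockdown cells, -0.0733 to -0.0248 for the knockdown in attached cells, and -0.00398 to 0.056 for the interaction. Leaving out 1 library, UQCRB on knockdown in detached cells lay between -0.0284 log2 (without detached knockdown replicate 2) and 0.221, and ATP5I on detachment of knockdown cells between -0.00103 (without attached knockdown replicate 1) and 0.265. Replicate numbers did not pair the libraries: deviations of same-numbered libraries correlated between -0.19 and 0.27. With the replicate block 334, 903, 70 and 198 of all genes were called (detachment in control and in knockdown cells, knockdown in detached and in attached cells), against 423, 956, 99 and 248 without it, and no interaction. With the numbers of the attached knockdown libraries exchanged, chosen after seeing the data, they were 251, 769, 65 and 135. Over all genes, in the same order, no filter gave 190, 476, 61 and 110, no intensity trend 120, 348, 26 and 66, and a fit of only the 2 groups 56, 188, 6 and 28. The number of libraries, 2 a group, limits what small differences can be detected.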
